A study of Mus musculus with 13 samples.

Results

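The 10 genes described here, Nlrp3, Pycard, Casp1, Casp4, Gsdmd, Il1b, Il18, Ripk1, Ripk3 and Mlkl, encode the machinery of lytic cell death and the IL-1 family cytokines that it releases. They were looked up by symbol in the gene table, and all 10 were found among the 33618 Ensembl identifiers counted. Bulk RNA-Seq was performed on whole parametrial white adipose tissue (pmWAT), a visceral fat depot, of female mice that all carried floxed Lmna alleles (exons 10 and 11). The 7 control mice (Lmna fl/fl) carried no Cre, and the 6 Lmna iADKO mice also carried Adipoq-CreERT2+/–, a tamoxifen-dependent Cre driven by the adiponectin promoter and thus aimed at adipocytes. All mice received tamoxifen by intraperitoneal injection at 50 mg/kg on 5 consecutive days at 12 to 14 weeks of age, and tissue was taken 2 weeks later. Since the controls had tamoxifen but no CreERT2, effects of the recombinase and of Lmna deletion cannot be told apart in this design.

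An inflammasome is a protein platform that assembles when a sensor such as NLRP3 detects danger signals in the cytosol. The adaptor ASC, encoded by Pycard, bridges the sensor to caspase-1, which matures IL-1β and IL-18 and cleaves gasdermin D into a fragment that forms pores in the plasma membrane. The murine product of Casp4 (also called Casp11) cleaves gasdermin D upon sensing bacterial lipopolysaccharide in the cytosol. Necroptosis uses other proteins: RIPK1 and RIPK3 form the necrosome, and RIPK3 phosphorylates MLKL, which then disrupts the membrane. Both forms of death are regulated largely by cleavage and phosphorylation, which mRNA does not measure. In fat, inflammasome genes are best known from macrophages. In whole tissue, fewer cells of a type and less RNA per cell cannot be told apart.

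Promoter sequence was read for the 250 bases before the start of each canonical transcript (GENCODE vM39, GRCm39). Short motifs of factors of myeloid and inflammatory genes were searched on both strands. They were an ETS core (GAGGAA), an NF-kB motif (GGGNNTTCC), an interferon response element (GAAANNGAA) and a C/EBP motif (TTGCNNAA). The TATA box (TATAAA), which is not particular to such genes, was searched in the same way. The following stretches are shown because they hold those matches in the sensor, in the lipopolysaccharide-sensing caspase, in the adaptor that was higher in iADKO, and in the cytokine with the widest spread. Capitals mark the ETS core and NF-kB motif in Nlrp3, the NF-kB motif in Casp4, the C/EBP motif and ETS core in Pycard and the TATA box in Il1b, and each line runs 5′ to 3′ on the strand of the gene.
Nlrp3, chr11:59433282-59433511, + strand: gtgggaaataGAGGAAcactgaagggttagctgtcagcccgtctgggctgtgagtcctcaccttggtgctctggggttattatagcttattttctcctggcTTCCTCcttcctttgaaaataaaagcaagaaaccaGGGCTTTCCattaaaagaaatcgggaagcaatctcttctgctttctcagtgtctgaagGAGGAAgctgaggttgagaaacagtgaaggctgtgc
Casp4, chr9:5308743-5308827, + strand: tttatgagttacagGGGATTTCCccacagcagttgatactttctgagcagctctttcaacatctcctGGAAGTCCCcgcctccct
Pycard, chr7:127593040-127593189, - strand: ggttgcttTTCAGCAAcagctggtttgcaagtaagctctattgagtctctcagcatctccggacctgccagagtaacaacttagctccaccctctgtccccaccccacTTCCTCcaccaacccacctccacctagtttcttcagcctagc
Il1b, chr2:129213060-129213159, - strand: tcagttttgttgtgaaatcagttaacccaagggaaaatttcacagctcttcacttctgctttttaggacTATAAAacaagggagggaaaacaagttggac

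The ETS core was present in the promoters of 4 of the 10 genes (Nlrp3, Pycard, Casp1 and Il18), and in 22.9% of 21757 promoters of protein-coding genes. In Nlrp3 it occurred 3 times, beginning 220, 129 and 36 bases before the transcript start. The NF-kB motif was present in Nlrp3 and Casp4, against 5.03% of all promoters, and Casp4 held it at 2 places. The interferon response element was found only in Mlkl among the 10 (7.56% of all promoters), the C/EBP motif only in Pycard (9.34%), and the TATA box only in Il1b (11.9%). None of the 5 motifs was present in these 250 bases of Gsdmd, Ripk1 or Ripk3. A match is a description of letters, and binding of a factor was not measured.

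The libraries held 18854223 to 19776491 counted reads each, and 16753 genes passed the filter on low counts, all 10 of these genes included. The 10 genes had between 620 (Il1b) and 14797 (Ripk1) reads in all 13 mice together. Lmna, the targeted gene, did not fall in the mice labelled iADKO. Its level, in TMM-normalized CPM (counts scaled to a common library size), ran from 74.7 to 98.5 CPM (median 83.5) in fl/fl and from 80.1 to 109 CPM (median 96.8) in iADKO. Its log2 fold change was 0.19 (SE 0.079, adjusted p = 0.0785, edgeR quasi-likelihood test). Counts over the whole gene include the exons that remain after deletion and the RNA of cells other than adipocytes, so the label of each library rests on the sample sheet. All adipocyte markers in the list, 8 of 8, were lower in iADKO, with a summed level of 9869 to 18791 CPM in fl/fl and 6895 to 11664 CPM in iADKO.

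Macrophage markers moved with the genes described here. Of 9 macrophage markers, 6 were higher in iADKO and 0 were lower, and none was near 0. Lyz2 (adjusted p = 0.103, edgeR), Itgam (0.114) and Cd163 (0.326) did not pass. The summed level of the 9 was 1954 to 5195 CPM (median 2337) in fl/fl and 3019 to 5195 CPM (median 4446) in iADKO. Lyz2 made the largest part of this sum, with means of 1360 CPM in fl/fl and 2234 CPM in iADKO. A pair of control mice stood apart in the sum. There fl/fl replicate 5 reached 5195 CPM and fl/fl replicate 7 reached 3443 CPM, while the other 5 controls had at most 2474 CPM. Among iADKO mice, replicate 6 was the lowest at 3019 CPM, and the other 5 had at least 4391 CPM. Neutrophil markers summed to 18.9 to 197 CPM in fl/fl and 72.9 to 279 CPM in iADKO, with 1 of 7 higher. Of the lymphocyte and dendritic cell lists, 2 of 5 T cell, 2 of 4 B cell and 3 of 5 dendritic cell markers were higher. Endothelial markers were lower in 2 of 5 cases, and 0 of 5 progenitor and 0 of 5 mesothelial markers passed. The part of these cell types in the differences below was not tested beyond the fit with the macrophage score.

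Pycard, Gsdmd and Ripk3 were higher in iADKO than in fl/fl, and none of the 10 genes was lower. These 3 of 10 genes compare with 14.1% of all genes tested that were higher (2367 of 16753) and 16.3% that were lower. Before adjustment, 6 of the 10 had a p under 0.05 in the higher direction and 0 in the lower, and the Wald test of DESeq2 called 4 higher and 0 lower. The shares above belong to the adjusted edgeR test, and none is given here for the unadjusted p or the Wald test. All 10 log2 fold changes were positive, from 0.04 for Mlkl to 0.76 for Nlrp3, with a median of 0.37 against 0.03 for all genes tested. Of all genes tested, 9158 of 16753 had a positive log2 fold change. In no case did all 6 iADKO mice lie above all 7 controls, a separation seen in 2.71% of genes tested. For 7 of the 10 genes, all 6 iADKO mice lay above the control median, a count for which no share over all genes is given here.

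**Figure D1:**
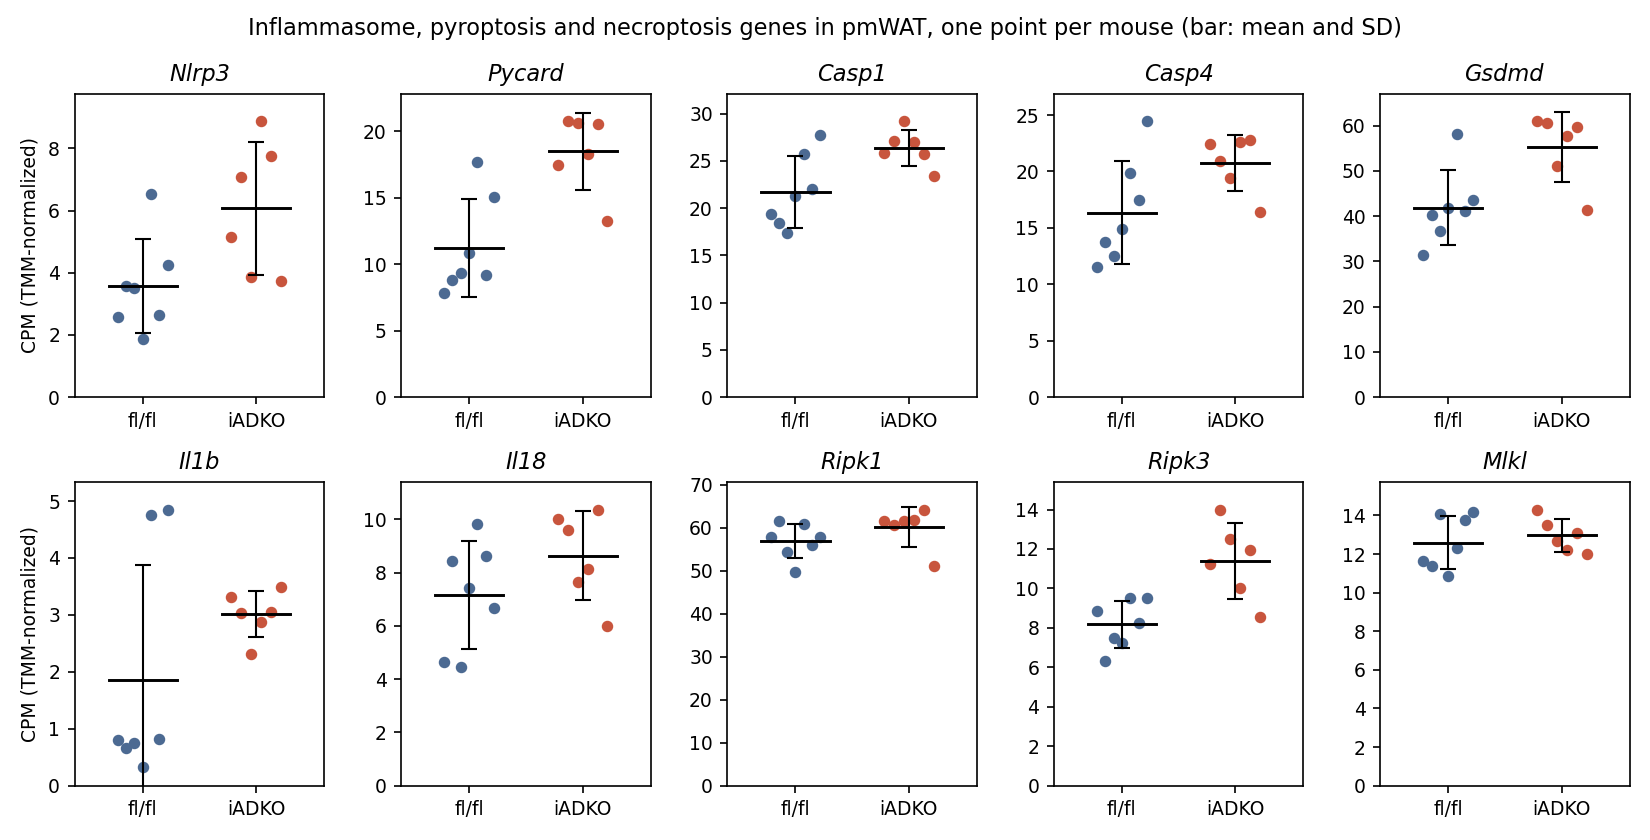
Level of each of the 10 genes in CPM (vertical axes, each from 0) in 7 fl/fl and 6 iADKO mice, with 1 point per mouse and the mean and SD in black. The groups overlap for every gene, and for Il1b 5 controls lie below 1 CPM while the other 2 lie above all iADKO mice.

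Nlrp3, the sensor, had the highest fold change of the 10 but did not pass the threshold. Its level was 1.88 to 6.53 CPM (median 3.52) in fl/fl and 3.73 to 8.87 CPM (median 6.12) in iADKO. The highest control was replicate 5, and 3 of 6 iADKO mice exceeded it. The log2 fold change was 0.76 (SE 0.281, adjusted p = 0.0528, edgeR), and the exact permutation p for this gene alone was 0.0286. Without fl/fl replicate 5 and iADKO replicate 6, the highest control and the lowest iADKO mouse for this gene, the log2 fold change was 1.07 (adjusted p = 0.00266, edgeR). Leaving out these extremes tends to widen the difference, so that fit is no separate support. Nlrp3 also passed without fl/fl replicate 5 alone (adjusted p = 0.0067), iADKO replicate 6 alone (0.0289) or iADKO replicate 3 alone (0.0417). These were 3 of the 13 fits that each left out 1 mouse. In the others it did not pass, with an adjusted p of up to 0.124 in edgeR, without iADKO replicate 4.

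Pycard, which encodes the adaptor ASC, was higher in iADKO at 18.5 ± 2.91 CPM (SD, n = 6) than in fl/fl at 11.2 ± 3.68 CPM (SD, n = 7). The controls ran from 7.82 to 17.7 CPM (median 9.30) and the iADKO mice from 13.3 to 20.8 CPM (median 19.4). Only fl/fl replicates 5 and 7, at 17.7 and 15.03 CPM, reached the iADKO range, and 4 of 6 iADKO mice lay above every control. This was a log2 fold change of 0.72 (SE 0.185, adjusted p = 0.0108), with an exact permutation p of 0.00699. The call held with each of the 13 mice left out in turn. Gm45205, an annotated gene on the other strand with its own counts, shares 485 bases with Pycard exons. The strand setting of the counting was not given in the sources used here.

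The 2 inflammatory caspases had smaller differences and did not pass. Casp1, the protease that matures the cytokines, was at 21.7 ± 3.83 CPM in fl/fl (SD, n = 7) and 26.4 ± 1.91 CPM in iADKO (SD, n = 6). The controls ran from 17.3 to 27.7 CPM and the iADKO mice from 23.4 to 29.2 CPM, so that only fl/fl replicates 5 and 7 entered the iADKO range. The difference, 0.28 on the log2 scale (SE 0.102), had an adjusted p of 0.0504 in edgeR, which went to 0.0165 without fl/fl replicate 5, to 0.0124 without fl/fl replicate 7 and to 0.036 without iADKO replicate 6. Casp1 passed only in these 3 of the 13 fits that each left out 1 mouse. Its adjusted p reached 0.107 without iADKO replicate 3. Casp4, the lipopolysaccharide-sensing caspase, ran from 11.5 to 24.5 CPM (median 14.9) in fl/fl and from 16.4 to 22.8 CPM (median 21.7) in iADKO. Here a control, replicate 7, was the highest of all 13 mice. With a log2 fold change of 0.34 (SE 0.158), the adjusted p of Casp4 was 0.112 in edgeR, and 0.017 without that control. This was the only 1 of 13 fits with 1 mouse left out in which Casp4 passed. Its adjusted p reached 0.195 without fl/fl replicate 1.

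Gsdmd, which encodes the pore-forming gasdermin D, was higher in iADKO at 55.2 ± 7.71 CPM (SD, n = 6) against 41.9 ± 8.26 CPM (SD, n = 7). The controls ran from 31.5 to 58.3 CPM (median 41.1) and the iADKO mice from 41.4 to 61.0 CPM (median 58.7). The top control was again replicate 5, the next reached 43.5 CPM, and the lowest iADKO mouse was replicate 6. The log2 fold change was 0.40 (SE 0.125, adjusted p = 0.0276), with an exact permutation p of 0.0169. This call was the least stable of the 3, since it held in 7 of the 13 fits that each left out 1 mouse. It was lost without fl/fl replicate 1 or 3 or iADKO replicate 1, 2, 4 or 5, at adjusted p of 0.0502 to 0.0618. Without both fl/fl replicate 5 and iADKO replicate 6 the log2 fold change was 0.54 (adjusted p = 0.000121, edgeR). Leaving out the top control and the lowest iADKO mouse tends to widen the difference, so this fit is no separate support.

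Il1b, the precursor of IL-1β, split the controls. In fl/fl replicates 1, 2, 3, 4 and 6 it was at 0.805, 0.659, 0.751, 0.322 and 0.828 CPM, from 6 to 15 reads per mouse. In fl/fl replicates 5 and 7 it was at 4.76 and 4.85 CPM, above every iADKO mouse. The 6 iADKO mice lay close together, from 2.31 to 3.49 CPM. The coefficient of variation was 109% in fl/fl and 13.5% in iADKO. The estimate, a log2 fold change of 0.69, had an SE of 0.548 (adjusted p = 0.356), and its 95% interval ran from -0.39 to 1.76. The exact permutation p on log2 CPM was 0.0466. The antisense gene Il1bos shares 95 bases with Il1b exons.

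Il18, the other cytokine precursor, was at 7.15 ± 2.03 CPM in fl/fl (SD, n = 7) and 8.63 ± 1.68 CPM in iADKO (SD, n = 6). The controls ran from 4.45 to 9.82 CPM and the iADKO mice from 5.99 to 10.4 CPM, with 2 of 6 above every control. Its log2 fold change was 0.27 (SE 0.189, adjusted p = 0.293).

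Of the 3 necroptosis genes, Ripk3 alone passed. Ripk3 encodes the kinase that activates MLKL, and its level was 6.31 to 9.54 CPM (median 8.22) in fl/fl and 8.54 to 14.0 CPM (median 11.6) in iADKO. Apart from iADKO replicate 6, at 8.54 CPM, every iADKO mouse lay above every control. The log2 fold change was 0.48 (SE 0.124, adjusted p = 0.0109), the exact permutation p was 0.00583, and the call held with each mouse left out in turn. Ripk1, the upstream kinase that also serves in TNF survival signaling, had overlapping levels of 49.8 to 61.6 CPM in fl/fl and 51.0 to 64.2 CPM in iADKO. Its log2 fold change was 0.08 (SE 0.062, adjusted p = 0.336), with a 95% interval from -0.04 to 0.20. The protein-coding gene Serpinb6a shares 241 bases with Ripk1 exons on the other strand. Mlkl, the membrane-disrupting effector, ran from 10.8 to 14.2 CPM in fl/fl and from 12.0 to 14.3 CPM in iADKO. Its log2 fold change was 0.04 (SE 0.080, adjusted p = 0.71), with a 95% interval from -0.11 to 0.20.

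Ratios within each mouse, which do not depend on library scaling, are given as a description without a test, since the pairs were chosen after the values of the single genes had been seen. The log2 ratio of Ripk3 to Ripk1 ran from -3.28 to -2.60 in fl/fl and from -2.62 to -2.11 in iADKO, and that of Ripk3 to Mlkl from -0.91 to -0.37 and from -0.49 to 0.05. The ranges overlapped in both cases. The log2 ratio of Pycard to Casp1 ran from -1.31 to -0.54 in fl/fl and from -0.82 to -0.32 in iADKO, again with overlap.

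Levels were compared between genes as CPM per kb of canonical transcript. In fl/fl, Gsdmd was the most abundant at 21.2 CPM per kb, followed by Casp1 (14.2), Casp4 (11.3), Ripk1 (8.44), Il18 (5.28), Ripk3 (4.31), Mlkl (3.02), Pycard (2.73), Il1b (1.37) and Nlrp3 (0.888). Gasdermin D mRNA, the effector, thus stood far above that of the sensor. Among neighbours in this order, only Ripk1 and Il18 had ranges over mice that did not overlap. In iADKO the order was the same except that Pycard (4.49 CPM per kb) stood above Mlkl (3.11 CPM per kb). There the ranges were apart between Gsdmd and Casp1, between Casp4 and Ripk1 and between Mlkl and Il1b. With all annotated exons as the length, Gsdmd and Casp1 stayed first and second, Nlrp3 and Il1b exchanged the last places, and Casp4 moved to place 5 in fl/fl and 6 in iADKO. The place of Pycard rests on its annotated canonical length of 4122 bases, most of it noncoding.

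**Figure D2:**
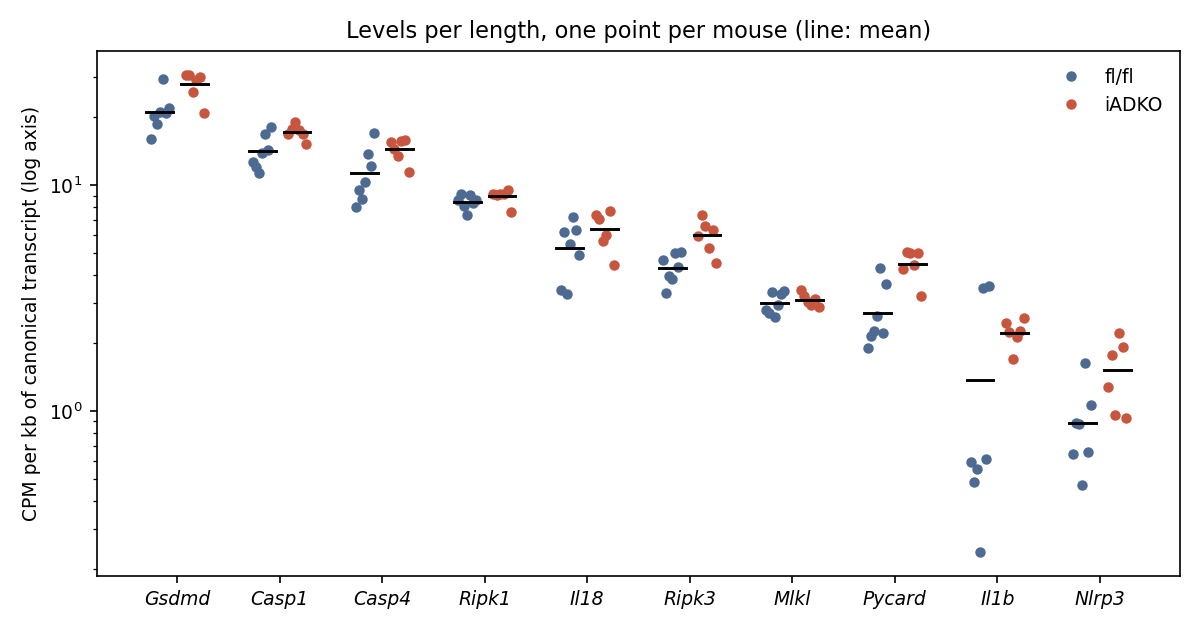
Level of each gene in CPM per kb of canonical transcript (log axis) in fl/fl and iADKO mice, with 1 point per mouse and a line at the mean, genes ordered by the fl/fl mean. Gsdmd lies highest at 21.2 and Nlrp3 lowest at 0.888 in fl/fl, and Il1b spans the widest range among controls.

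The same mice stood out for most of the genes. Control replicate 5 was the highest of its group for 4 of the 10 genes and replicate 7 for 5, and each lay above the control median for 9 of 10. iADKO replicate 6 was the lowest of its group for 9 of 10 genes, while each of the other 5 iADKO mice lay above the control median for at least 9 of 10. These are the mice whose macrophage marker sums lay nearest to the other genotype. Without fl/fl replicate 5 and iADKO replicate 6, 5 of the 10 genes were higher (Nlrp3, Pycard, Casp1, Gsdmd and Ripk3), against 19.6% of genes tested in that fit. Both mice lay toward the other genotype in these same values, so leaving them out tends to widen the differences. That fit is thus no separate support for the differences.

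**Figure D3:**
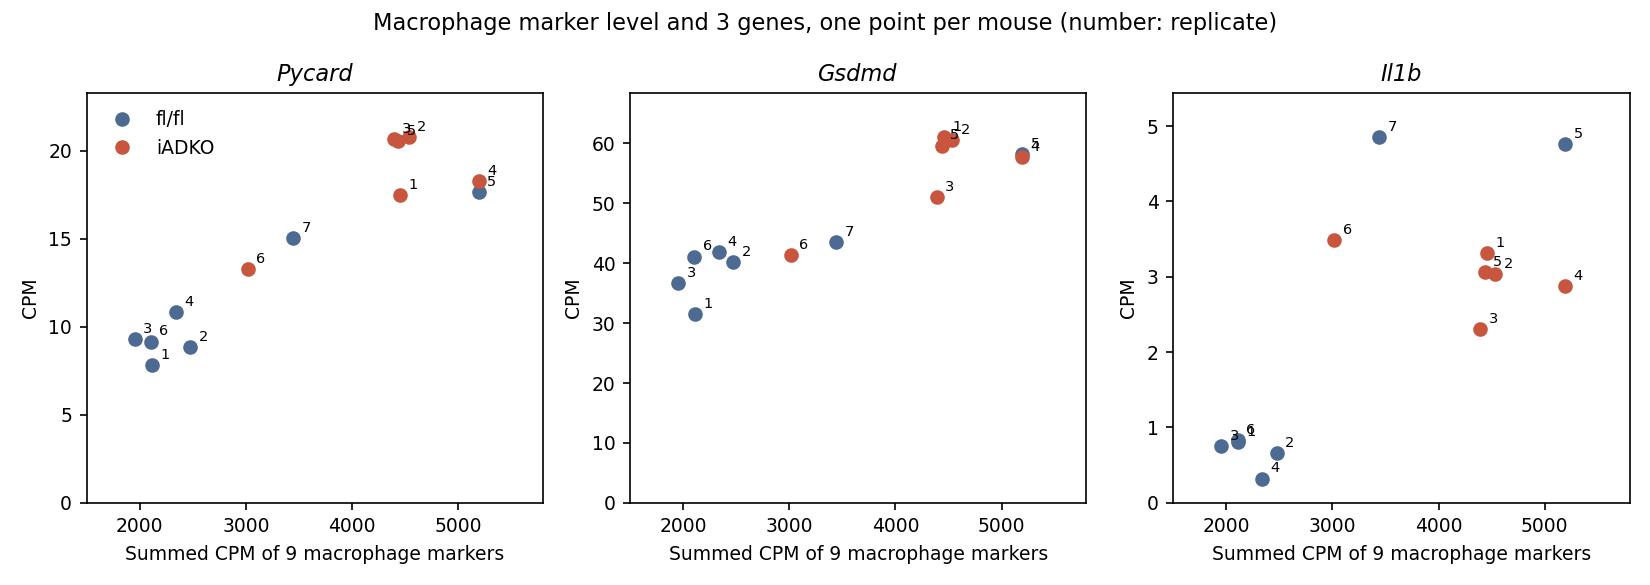
Summed CPM of 9 macrophage markers (horizontal axis) against the CPM of Pycard, Gsdmd and Il1b (vertical axes) in 7 fl/fl and 6 iADKO mice, numbered by replicate. Controls 5 and 7 lie at higher marker sums and higher levels of all 3 genes than the other controls, and for Il1b they lie above the iADKO mice.

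When the mean log2 level of the macrophage markers in each mouse entered the fit as a covariate, none of the 10 genes was called higher or lower, and none had an unadjusted p under 0.05. In that fit 1.06% of all genes were higher. The log2 fold change of Pycard was then 0.10 (SE 0.13), that of Gsdmd -0.03 (SE 0.10), that of Nlrp3 -0.04 (SE 0.274) and that of Ripk3 0.21 (SE 0.164). Fold changes remained above 0 for 3 of the 10 genes, Pycard, Ripk3 and Mlkl, and the median was -0.03. The score itself differed between the genotypes, so that a part of the genotype difference enters the covariate, and whether macrophage number accounts for the differences was not tested.

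Library names carry animal numbers, which were split here into 4 series that no label states, of which 1 held controls only and 1 held iADKO mice only. The breaks were not uniform, since a gap of 15 separated a pair of series and an equal gap stood within another. With the series as a block, the genotype contrast rested only on series that held both genotypes, so on fewer of the mice. In that fit 0 of the 10 genes passed in edgeR, where 4.68% of all genes were higher after adjustment. An unadjusted p under 0.05 was found for 5, a count for which no share over all genes is given here. The fold changes of the 3 called genes were then 0.69 for Pycard (adjusted p = 0.0704), 0.41 for Gsdmd (adjusted p = 0.125) and 0.47 for Ripk3 (adjusted p = 0.0668). Within the series of animals 747 to 765, with 3 controls and 2 iADKO mice, all 10 genes were higher in iADKO by 0.08 to 2.03 on the log2 scale (median 0.77). Within that of animals 722 to 727, with 2 mice of each genotype, 8 of 10 were higher and the median was 0.13. That series held fl/fl replicate 5 and iADKO replicate 6, and Gsdmd differed there by -0.01 and Il18 by -0.29. In a grouping added after the data had been seen, which split the numbers only at gaps over 15, Pycard alone of the 10 genes passed (log2 fold change 0.69, adjusted p = 0.0364), against 8.83% of all genes higher. Gsdmd (adjusted p = 0.0685) and Ripk3 (adjusted p = 0.0651) did not pass in that fit. The animals 706 to 727 then formed 1 series of 4 controls and 2 iADKO mice, in which 8 of the 10 genes were higher with a median of 0.08.

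**Figure D4:**
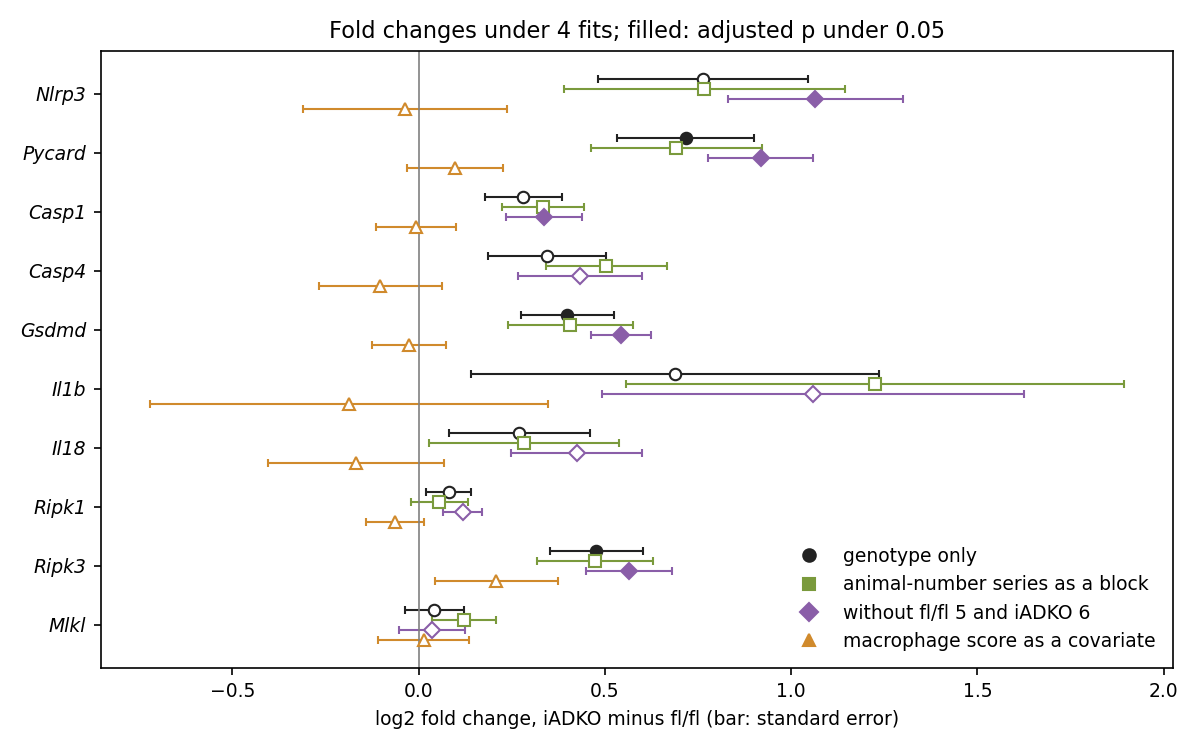
Log2 fold change, iADKO minus fl/fl, with its standard error for each of the 10 genes in 4 fits of edgeR, filled where the adjusted p was under 0.05. With genotype alone Pycard, Gsdmd and Ripk3 are filled, without fl/fl 5 and iADKO 6 also Nlrp3 and Casp1, and none with the 4 number series or the macrophage score in the fit.

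Other genes of these pathways were followed in lists by role. Of 58 listed genes 54 were in the table and 51 passed the filter, and the test called 21 of them higher and 3 lower, where 14.1% and 16.3% of all genes tested were higher and lower. The same shares stand behind the counts of each list below. Among the other sensors 6 of 10 were higher: Nlrp1b (log2 fold change 0.82), Nlrc4 (0.64), Aim2 (0.61), Naip6 (0.58), Naip2 (0.58) and Naip5 (0.54). NLRC4 assembles an inflammasome when NAIP proteins bind bacterial flagellin or secretion needle proteins, and AIM2 binds cytosolic DNA. The Naip genes, and Nlrp1b with Nlrp1a, are close paralogs whose reads the counting may have split, so their single values are uncertain. Nek7, a partner of NLRP3, was lower by a small amount (121 ± 6.20 CPM in fl/fl and 110 ± 3.49 CPM in iADKO, adjusted p = 0.0343, edgeR). Mefv, which encodes pyrin, was 1.79 ± 1.80 CPM in fl/fl (SD, n = 7) and 3.54 ± 1.06 CPM in iADKO (SD, n = 6) and did not pass (adjusted p = 0.153, edgeR).

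Downstream of the gasdermin pore, Ninj1, which encodes the protein that ruptures the membrane of dying cells, was higher at 110 ± 13 CPM in iADKO (SD, n = 6) against 81.4 ± 16.1 CPM in fl/fl (SD, n = 7). That is a log2 fold change of 0.43 (adjusted p = 0.0151, edgeR). Gsdme, another gasdermin, was not called, at a log2 fold change of -0.33 (SE 0.234, adjusted p = 0.292). Gsdma, Gsdmc2 and Nlrp6 had too few reads to be tested. None of 4 guanylate-binding proteins, which expose bacterial lipopolysaccharide to the Casp4 product, passed, and Gbp2 was at 131 and 137 CPM (log2 fold change 0.06, adjusted p = 0.664).

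The IL-1 receptor antagonist Il1rn had the highest fold change of all pathway genes tested. Its level was 2.09 to 3.70 CPM in 5 controls, 10.1 CPM in fl/fl replicate 7 and 16.4 CPM in fl/fl replicate 5, and it was 13.4 to 31.4 CPM in the 6 iADKO mice. Only control 5 reached the iADKO range. Its log2 fold change was 1.90 (SE 0.487, adjusted p = 0.0120, edgeR), against 0.69 for Il1b, which Il1rn opposes at the receptor. Il1rn CPM per Il1b CPM, a ratio chosen after the values were seen and not tested, ran from 2.09 to 6.5 in fl/fl and from 3.83 to 13.6 in iADKO.

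In the same list of 12 IL-1 and IL-18 genes, 6 were higher and 0 lower. Beside Il1rn these were Il18rap (0.49), a receptor subunit for IL-18, Il18bp (0.32), the secreted decoy of IL-18, the adaptor Myd88 (0.29), and Irak2 (0.32) and Irak3 (0.23), of which IRAK3 restrains signaling. Il18rap, Il18bp and Irak3 passed narrowly, at adjusted p of 0.0461, 0.0449 and 0.0427 in edgeR. The receptor Il1r1 was at 79.8 ± 27.3 CPM in fl/fl (SD, n = 7) and 90.6 ± 14.3 CPM in iADKO (SD, n = 6) and did not pass (adjusted p = 0.491, edgeR).

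Of 17 genes that feed or restrain the necrosome, 7 were higher and 1 was lower. Tnf, the cytokine that triggers the pathway, rose from 1.66 ± 0.712 CPM in fl/fl (SD, n = 7) to 2.98 ± 0.752 CPM in iADKO (SD, n = 6; adjusted p = 0.0255, edgeR). The deubiquitinating brake Tnfaip3 (A20) ran from 17.2 to 31.9 CPM in fl/fl and from 28.2 to 42.5 CPM in iADKO, a log2 difference of 0.66 (adjusted p = 0.00467, edgeR). Zbp1 (0.40) and Ticam1 (0.39), both of which can engage RIPK3 without TNF, were higher, as were Birc3 (0.36), Traf2 (0.25) and Rnf31 (0.16), which take part in ubiquitin signaling on RIPK1. Zbp1, Traf2 and Rnf31 passed narrowly, at adjusted p of 0.0427, 0.0451 and 0.0429 in edgeR. Fadd, the adaptor that recruits caspase-8 to RIPK1, was lower, at 17.5 to 21.6 CPM in fl/fl and 13.5 to 17.5 CPM in iADKO (log2 fold change -0.29, adjusted p = 0.00874). Tnfrsf1a, the TNF receptor, was at 188 and 198 CPM and did not pass (log2 fold change 0.08, adjusted p = 0.385).

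Among the other caspases, Casp2 was higher at 28.1 ± 0.971 CPM in iADKO (SD, n = 6) against 23.0 ± 3.21 CPM in fl/fl (SD, n = 7), a log2 fold change of 0.28 (adjusted p = 0.0152, edgeR). Casp9, the initiator of mitochondrial apoptosis, was at 41.6 and 42.1 CPM (log2 fold change 0.02, adjusted p = 0.843). With the macrophage score as a covariate none of the 51 pathway genes passed. With the 4 number series as a block 4 were higher, where 4.68% of all genes were, and 1 was lower, and with the split at gaps over 15 the counts were 9 (8.83% of all genes) and 2. When 1 mouse was left out at a time, 27 were higher without fl/fl replicate 5, 22 without iADKO replicate 6, 20 without fl/fl replicate 7, and 10 to 13 with any other single mouse left out. No share of all genes that were higher is given here for those fits.

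**Figure D5:**
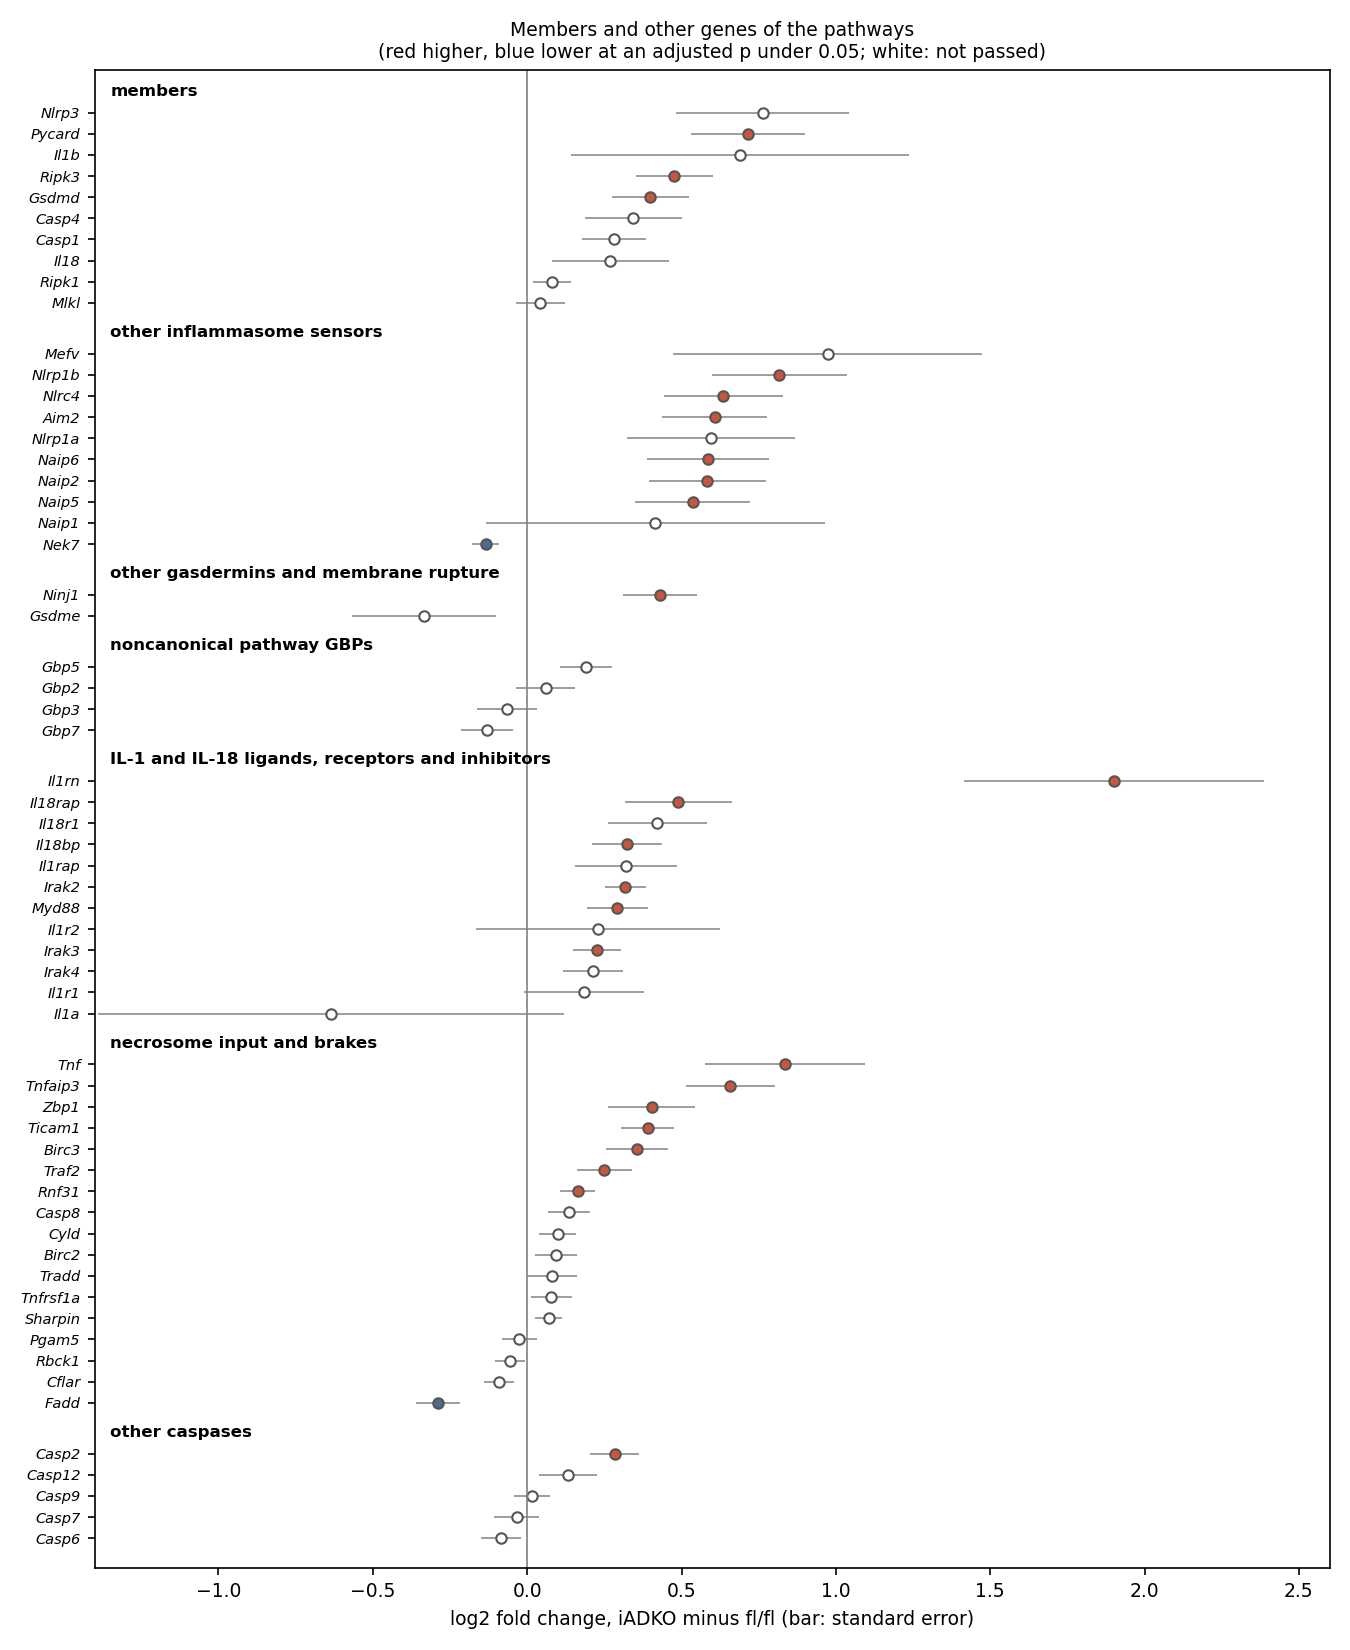
Log2 fold change, iADKO minus fl/fl, with its standard error for the 10 genes and the pathway genes reported here, by list (red higher, blue lower, white not passed). Il1rn lies furthest to the right at 1.90, and Nek7 and Fadd lie to the left of 0 in blue.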

How the data were processed

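RNA-Seq libraries of pmWAT from 7 fl/fl and 6 iADKO mice were analyzed, grouped by their labels. The authors deposited raw counts per gene and log2 (rlog) values made from them with DESeq2. The labels name FastQC 0.12.1 and STAR 2.7.11a with mm39, while the counting tool and its annotation were not given in the sources used here. The 10 genes and the pathway and marker lists were chosen with earlier results of these data known. Genes were filtered with filterByExpr (edgeR 4.0.16, R 4.3.3), TMM-normalized and compared with the robust quasi-likelihood test, with Benjamini-Hochberg adjustment over all 16753 genes and a threshold of 0.05. A prior count of 2 was added before taking log2 CPM, and all CPM values include the TMM factors. For single genes, the labels were also permuted over all 1716 splits in an exact test (two-sided), which cannot give a p below 0.000583. The pathway genes named are those that passed and, per list, the most abundant that did not, except for an item not reported here. Alternatives used DESeq2 1.42.0, limma 3.58.1, other filters, blocks, the macrophage score and left-out mice. The fits were tested on simulated data. Replicates of a genotype differed by more than counting error (chi-square per degree of freedom 8.90 to 98.7), and errors are the spread between mice. Coordinates are on GRCm39.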

Additional observations from a re-analysis of the deposited data

Results flagged for a closer look

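Of 20 groups looked at (10 genes in each genotype), 1 held a mouse far from the others: Ripk1 in iADKO replicate 6 was at 51.0 CPM, while the next mouse was at 60.6 CPM and the highest at 64.2 CPM, so that the gap was 0.732 of the range. Chance gives about 1 such group in 20. The same mouse had the lowest macrophage marker sum of its group, 3019 CPM, and whether that bears on its Ripk1 level was not tested.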

How the results depend on the processing

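Of the 10 genes, 3 were higher with DESeq2's size factors or limma on the rlog values, 4 with the DESeq2 Wald test, 2 without a filter on low counts, 5 with at least 10 counts in every sample (Il1b then dropped out), 5 without fl/fl replicate 5 and iADKO replicate 6, 0 with the 4 number series or the macrophage score in the fit, and 1 with series split only at gaps over 15, a grouping added after the data were seen. None was lower in any of these fits. For the fits with other size factors, rlog values, the Wald test or other filters, no share of all genes that were higher is given here. With 1 mouse left out at a time 2 to 5 genes were higher, 5 without fl/fl replicate 5, fl/fl replicate 7 or iADKO replicate 6. The median log2 fold change in these fits was 0.31 to 0.45. No share of all genes that were higher is given here for them. Genes past the threshold in either direction also varied between these fits, and were most, 6604, without fl/fl replicate 5. All genes past the threshold numbered 5104, then 1986 with the number series, 391 with the macrophage score and 3998 to 6604 with 1 mouse left out. The 21 higher pathway genes became 16 with DESeq2's size factors, where Il18rap, Il18bp, Irak3, Traf2 and Rnf31 did not pass. The count was 11 without a filter, 4 with the 4 series and 9 with series split at gaps over 15. It was 0 with the score and 10 to 27 with 1 mouse left out. The 3 lower ones became 1, 0 and 2 to 3 with the 4 series, the score and 1 mouse left out. With the macrophage score the direction reversed for the median of the 10 genes (-0.0307), Nlrp3 (-0.0358), Casp1 (-0.00686), Casp4 (-0.103), Gsdmd (-0.0256), Il1b (-0.188), Il18 (-0.168), Ripk1 (-0.0642), Naip2 (-0.0703), Naip5 (-0.0699), Naip6 (-0.0377), Myd88 (-0.000918), Irak3 (-0.0449), Zbp1 (-0.00808) and Traf2 (-0.0352), and the cause was not tested. The pathway genes named here are not all that reversed. Of the 51, 39 had a positive fold change in the main fit and 24 with the score. The labels do not say that replicate numbers pair the mice, and the main fit used no pairing. Same-numbered mice had a mean correlation of 0.107, against -0.02 for other pairs, and correlated above 0.1 in 3 of 6 pairs. Of 6 controls, 3 correlated best with their own number. These values do not settle whether the numbers are pairs. With the replicate block and without fl/fl replicate 7, which has no partner, 7 of the 10 genes were higher. No share of all genes that were higher is given here for that fit, so the count has no background. Control replicate 7 was the highest of its group for 5 of the 10 genes, so leaving it out tends to widen the differences. Without that mouse alone and with no block, 5 genes were higher.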
